A study of Mus musculus with 8 samples.

Results

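Spi1, Ikzf1, Cebpa, Cebpb, Mitf, Runx1 and Maf encode transcription factors of the macrophage lineage, and their transcripts were followed in a macrophage line and a colon tumour line, each grown alone or with the other. The genes were chosen by name, with earlier results of these data known. Every probe set that the array's annotation assigned to 1 of the 7 symbols was taken. This gave 20 of the 45037 probe sets and 7 of the 18193 genes. Of the 20 probe sets, 16 lay above the floor for low signals, the 40th percentile of an array (5.21 to 5.28 log2 units), in both arrays of at least 1 group. The 4 others belonged to Maf. Each gene was represented by its brightest probe set, and all 7 genes were among the 13197 that were tested.

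The study measured total RNA from established mouse lines on 8 single-colour Affymetrix arrays in 4 groups of 2. CT26, a colon tumour line labelled as epithelial, was grown in wells by itself (CT26 alone) or below inserts that held macrophages (CT26 co-culture). RAW264, a macrophage line called RAW here, was grown by itself (RAW alone) or in inserts above CT26 cells (RAW co-culture). Inserts joined wells 8 hours after seeding, soluble molecules could pass without cell contact, and the whole experiment was run 2 times, which supplied the arrays numbered 1 and 2 of each group. No group carried an engineered allele or received an added agent, and the length of co-culture is not given in the sources used here. Trypsin was used to detach CT26 cells before RNA was taken, but RAW cells went into TRIzol directly on their membrane, so line and harvest cannot be told apart. With 2 experiments, p-values reflect only the scatter between these samples, which may be technical. The values are normalized per array, so a change in total RNA per cell cannot be seen, and in a mixed sample fewer expressing cells and less RNA per cell cannot be told apart.

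PU.1, the product of Spi1, is an ETS-family factor that sets up myeloid enhancers together with C/EBP proteins, and RUNX1 acts upstream of it when blood cells form. C/EBPα drives myeloid differentiation, C/EBPβ acts in inflammatory macrophages and in many other cells, and Ikaros, the product of Ikzf1, is a zinc finger regulator of blood cell chromatin. MITF, a basic helix-loop-helix factor of the MiT/TFE family, is known from melanocytes and osteoclasts, and with its relative TFEC it is also expressed in macrophages. c-MAF is a basic leucine zipper factor of mature tissue macrophages.

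The labels of the lines were checked on markers. The mean level of 14 macrophage markers was 12.38 to 12.57 log2 units in the 4 RAW arrays and 5.61 to 5.62 in the 4 CT26 arrays, with no overlap between the lines. In CT26 alone 4 of the 14 lay under the floor in both arrays, so that mean is close to background there. Of 12 epithelial markers 8 were tested and 3 of them, Krt20, Krt18 and Tjp1, were called higher in CT26 alone. Among all genes tested 17.6% were called in that direction. Cdh1 lay under the floor in all 8 arrays. Of 8 tested mesenchymal markers 6 were called higher in CT26 alone, among them Sparc and Col1a1, beside the same 17.6%. Acta2 was higher in RAW alone (0.45 ± 0.12; limma, adjusted p = 0.0293), as 17% of all genes were. Only 5 of 10 mesenchymal and 5 of 12 epithelial markers lay above the floor in each RAW alone array. All 8 tested of each list lay above it in both CT26 alone arrays. Markers dim in RAW could thus enter the test through CT26, so these counts partly repeat the filter. Of 5 melanocyte markers only Pmel was tested, at 6.12 to 6.41 log2 units in all 8 arrays.

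Sequences just upstream of the annotated start sites are given for Mitf and Cebpa, which passed in some fits of the RAW co-culture comparison below, and for Runx1, whose probe sets gave different readings there. They are the 250 bases before each start in the RefSeq promoter table of GRCm38.p6, which held 9 windows for 5 of the 7 genes. Capitals mark matches, on either strand, to a PU.1 box (GAGGAA), a RUNX site (TGTGGT), a C/EBP site (TTGCNNAA), an E-box of the kind MiT/TFE factors bind (CACGTG) or a MAF site (TGCTGAC), none of which overlapped here. A match describes letters and not occupancy.
Mitf start 1, chr6:97806808-97807057, plus strand: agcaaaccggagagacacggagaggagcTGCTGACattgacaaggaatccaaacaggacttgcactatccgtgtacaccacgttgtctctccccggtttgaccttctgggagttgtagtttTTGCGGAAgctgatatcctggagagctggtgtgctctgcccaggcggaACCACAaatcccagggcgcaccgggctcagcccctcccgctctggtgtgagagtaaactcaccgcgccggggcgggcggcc
Mitf start 2, chr6:97929567-97929816, plus strand: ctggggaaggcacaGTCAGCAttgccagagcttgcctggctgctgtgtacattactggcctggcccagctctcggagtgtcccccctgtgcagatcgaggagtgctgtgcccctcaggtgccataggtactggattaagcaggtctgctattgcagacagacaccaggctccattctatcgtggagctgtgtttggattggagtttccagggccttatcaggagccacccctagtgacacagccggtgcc
Mitf start 3, chr6:97991533-97991782, plus strand: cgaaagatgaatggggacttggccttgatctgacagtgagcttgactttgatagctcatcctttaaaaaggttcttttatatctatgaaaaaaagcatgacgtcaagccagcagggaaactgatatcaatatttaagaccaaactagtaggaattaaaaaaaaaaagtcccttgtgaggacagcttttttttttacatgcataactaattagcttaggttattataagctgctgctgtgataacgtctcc
Runx1 start 1, chr16:92826075-92826324, minus strand: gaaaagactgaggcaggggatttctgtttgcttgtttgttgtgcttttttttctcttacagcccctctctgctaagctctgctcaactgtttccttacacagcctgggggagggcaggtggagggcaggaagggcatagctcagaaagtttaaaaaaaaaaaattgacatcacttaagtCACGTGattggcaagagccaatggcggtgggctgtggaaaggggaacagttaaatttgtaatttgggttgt
Runx1 start 2, chr16:92697330-92697579, minus strand: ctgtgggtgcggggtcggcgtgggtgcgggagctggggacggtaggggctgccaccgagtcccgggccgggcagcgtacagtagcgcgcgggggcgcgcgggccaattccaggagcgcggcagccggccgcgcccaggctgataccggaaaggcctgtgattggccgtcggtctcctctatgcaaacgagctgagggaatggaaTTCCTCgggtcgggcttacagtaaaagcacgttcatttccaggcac
Cebpa start 1, chr7:35119043-35119292, plus strand: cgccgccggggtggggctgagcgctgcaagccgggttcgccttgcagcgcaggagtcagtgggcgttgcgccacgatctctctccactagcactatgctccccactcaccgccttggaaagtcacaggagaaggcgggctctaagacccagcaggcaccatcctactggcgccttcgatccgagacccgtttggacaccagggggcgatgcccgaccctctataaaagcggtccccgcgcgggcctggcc

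The window of Mitf start 1 held a MAF site 222 bases, a C/EBP site (TTGCGGAA) 129 bases and a RUNX site on the minus strand 81 bases before the start. Mitf start 2 had a MAF site on the minus strand 236 bases before the start, and start 3 had none of these letters. Runx1 start 1 had an E-box 71 bases and start 2 a PU.1 box on the minus strand 46 bases before the start. The windows of Cebpa, of Cebpb and of both Ikzf1 starts had no match. Such short strings are frequent: of the 32851 windows in the table, 23.3% held the PU.1 box, 14.05% the RUNX site, 9.56% the C/EBP site, 6.02% the E-box and 3.81% the MAF site.

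When the lines grown alone were compared, 4 of the 7 genes were higher in RAW cells by limma at an adjusted p under 0.05, and 0 were lower. Among all genes tested, 17% were called higher in RAW alone and 17.6% lower. Spi1, Ikzf1, Cebpa and Mitf made up the 4, with differences of 2.91 to 5.56 log2 units, and the median over the 7 was 2.91 beside -0.05 over all genes. The arrays of the groups did not overlap for 5 of the 7, all higher in RAW alone, against 30.2% of all genes.

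Spi1 stood at 11.45 and 12.27 log2 units in RAW alone and at 6.39 and 6.21 in CT26 alone. The difference was 5.56 ± 0.36 (SE), or 47.2-fold (limma, adjusted p = 2.98e-05). All RAW arrays were far above all CT26 arrays, and 95 genes of the 13197 had a larger difference. Ikzf1 stood at 10.57 and 10.82 in RAW alone and at 5.80 and 5.70 in CT26 alone, a difference of 4.94 ± 0.21 or 30.8-fold (limma, adjusted p = 4.4e-06). The other Ikzf1 probe set read a smaller difference of 2.10 ± 0.38. Its arrays did not overlap either, at 8.25 and 8.62 in RAW alone and 5.79 and 6.89 in CT26 alone.

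Cebpa stood at 9.75 and 11.31 in RAW alone and at 6.91 and 7.46 in CT26 alone. Although the RAW arrays lay 1.56 log2 units apart, they did not overlap with CT26 alone, and the difference was 3.35 ± 0.58 or 10.2-fold (limma, adjusted p = 0.00397). Mitf stood at 11.49 and 11.37 in RAW alone and at 8.73 and 8.30 in CT26 alone, a difference of 2.91 ± 0.16 or 7.51-fold (limma, adjusted p = 1.4e-05). The other Mitf probe set read 7.77 and 8.48 in RAW alone and lay at the floor in the 4 CT26 arrays, at 5.20 to 5.37, so its difference of 2.81 ± 0.40 is a lower bound.

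Cebpb, Runx1 and Maf were not called in that fit. Cebpb stood at 11.27 and 12.42 in RAW alone and at 10.74 and 11.64 in CT26 alone, so the groups overlapped, and the difference was 0.65 ± 0.56 (limma, adjusted p = 0.422). Within each experiment RAW alone was above CT26 alone, by 0.52 and 0.78, and with the experiment as a block in limma the difference passed (a block common to the lines gave adjusted p = 0.0029, a block per line 0.000419). Runx1 stood at 8.88 and 8.97 in RAW alone and 8.64 and 8.65 in CT26 alone. That difference of 0.27 ± 0.13 did not pass without a block in limma (adjusted p = 0.155) and passed with either block (adjusted p = 0.0447 and 0.0355). In limma over probe sets it passed only with a block per line (adjusted p = 0.0435, against 0.0559 under the shared block). Another Runx1 probe set, at 0.33 ± 0.16, passed with either block there (adjusted p = 0.0454 and 0.0362). The remaining ones differed by 0.08 to 0.22 and passed in no fit. Maf, at 6.34 and 6.30 in RAW alone and 6.01 and 6.31 in CT26 alone, differed by 0.16 ± 0.15 and passed in no fit (limma, adjusted p = 0.451 without a block). Its 95% interval ran from -0.19 to 0.52. Of its 6 probe sets 4 lay under the floor in all 8 arrays, at 3.77 to 4.85. With either block 6 of the 7 genes were called higher, beside 25.5% and 28.2% of all genes called higher under the shared and the separate block.

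Between the co-cultured lines the same 4 genes were called higher in RAW cells, beside 17.7% of all genes. The differences were 5.85 ± 0.36 for Spi1, 5.26 ± 0.21 for Ikzf1, 2.76 ± 0.58 for Cebpa and 2.11 ± 0.16 for Mitf, each with an adjusted p of 0.0094 or less by limma. The Cebpa call was lost without CT26 co-culture array 1 (2.50, limma adjusted p = 0.0525) and without RAW co-culture array 2 (2.17, adjusted p = 0.0510). Cebpb differed by 0.38 ± 0.56 and passed only with a block (limma, adjusted p = 0.650 without, 0.0300 under the shared block and 0.00628 under a block per line), where 26.1% and 29% of all genes were called higher. Runx1 (0.16 ± 0.13) and Maf (-0.16 ± 0.15), read on their brightest probe sets, passed in no fit. Other Runx1 probe sets were lower in RAW, by -0.46 ± 0.32, -0.44 ± 0.32 and -0.35 ± 0.19. They passed only with a block per line (limma over probe sets, adjusted p = 0.0384, 0.0131 and 0.0140), where 27.7% of all probe sets were called lower. The remaining ones read -0.09 ± 0.15 and 0.30 ± 0.16 and passed in no fit, so the sign for Runx1 depends on the probe set. Arrays of the co-cultured lines did not overlap for 4 genes that were higher in RAW, against 30.5% of all genes, and for Maf, which was lower in RAW, against 35%. The other Maf probe set above the floor read 0.13 ± 0.16 in this comparison and its groups overlapped. The sign for Maf thus also depends on the probe set.

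**Figure D1:**
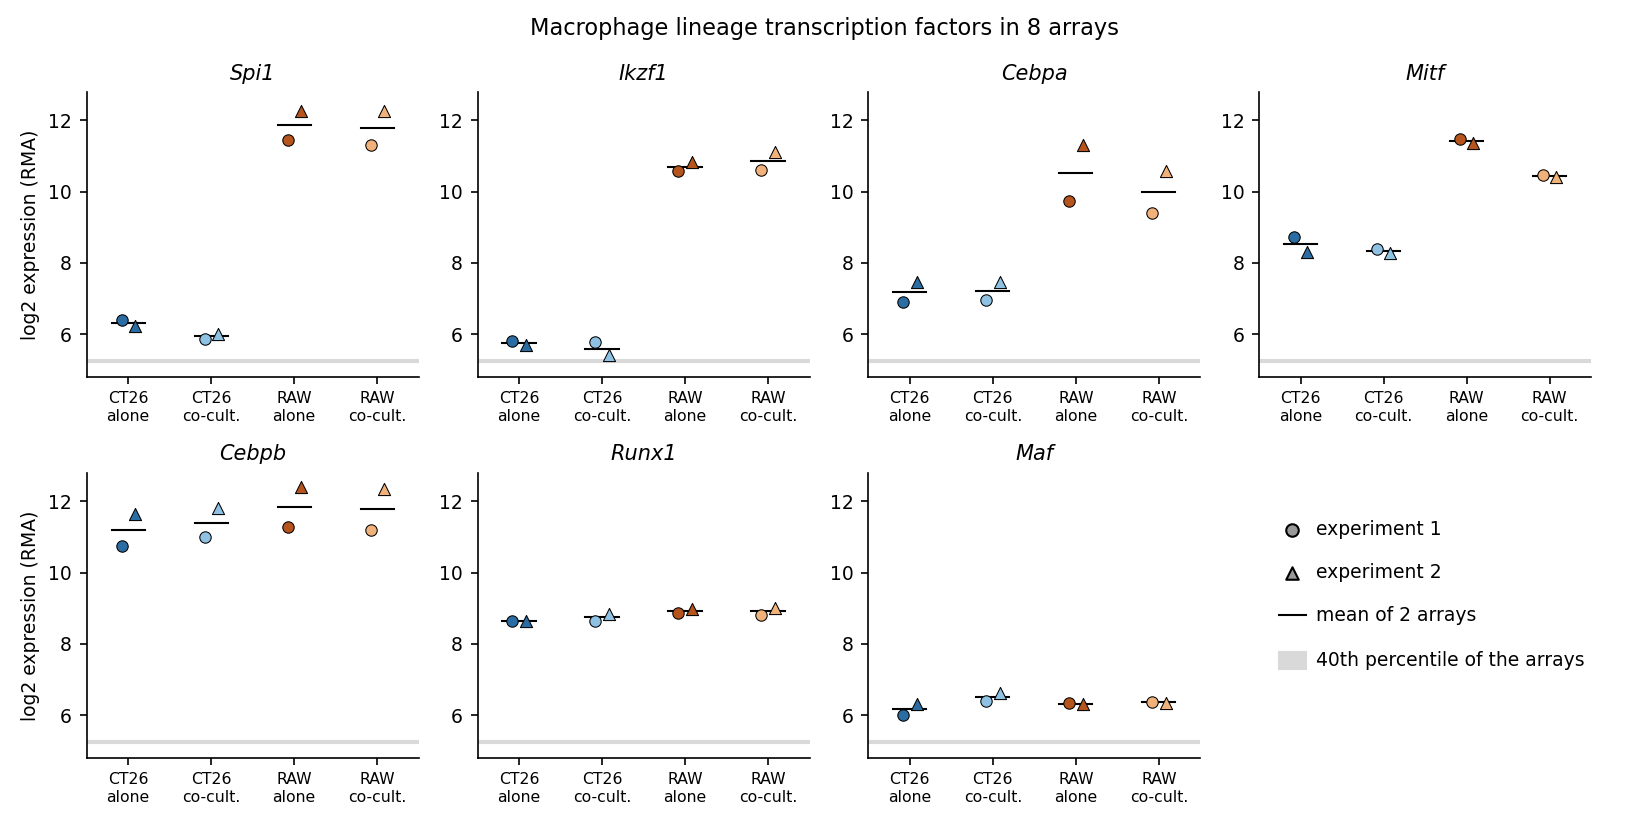
log2 expression (RMA, vertical axis) of the brightest probe set of each gene in the 4 groups (horizontal axis); circles are experiment 1, triangles experiment 2, lines the mean of 2 arrays, and the grey band the 40th percentile of the arrays. Spi1, Ikzf1, Cebpa and Mitf lie higher in all RAW arrays than in all CT26 arrays, and Mitf is lower in both RAW co-culture arrays (10.46 and 10.42) than in both RAW alone arrays (11.49 and 11.37).

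The main question of the design was what soluble molecules of the other line do. In RAW cells Mitf was the gene of the 7 with the largest difference. It read lower in co-culture in both experiments on both probe sets, by a mean of about 1 log2 unit on each probe set. Without a block 0 of the 7 genes passed in limma, where 0.25% of all genes did (0.167% higher and 0.0834% lower). With a block shared by the lines 1 of the 7 passed, where 1.11% of all genes did, and with a block per line 2 of the 7 passed, Mitf and Cebpa, both lower, where 2.01% of all genes were called lower and 1.55% higher.

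Mitf stood at 11.49 and 11.37 in RAW alone and at 10.46 and 10.42 in RAW co-culture. No co-culture array reached an array of RAW alone, a gap in this direction that 12.3% of all genes showed. The difference was -0.99 ± 0.16 (SE; 95% interval -1.37 to -0.60), a 1.98-fold lower level, with -1.03 in experiment 1 and -0.94 in experiment 2. In limma the adjusted p was 0.109 without a block, 0.0170 under the shared block and 0.00426 under a block per line. A lower value in this comparison was seen for 57 of the 13197 genes. The other Mitf probe set stood at 7.77 and 8.48 in RAW alone and at 6.56 and 7.77 in RAW co-culture. Its difference of -0.96 ± 0.40 was close to that of the first probe set, although its experiments lay further apart (limma over 23973 probe sets, adjusted p = 1.00 without a block, 0.268 under the shared block and 0.0172 under a block per line). The comparisons of the lines and of co-culture share the RAW arrays, so the high level of Mitf in RAW alone and its lower level in RAW co-culture are not separate observations. In RAW co-culture Mitf was still 2.11 log2 units above CT26 co-culture.

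Cebpa stood at 9.75 and 11.31 in RAW alone and at 9.39 and 10.57 in RAW co-culture. The groups overlapped, the array of experiment 2 was the higher in each, and within the experiments co-culture was lower by 0.36 and 0.74. The mean difference was -0.55 ± 0.58, and the SE came down to 0.11 with a block per line. Cebpa was called only with that block and close to the threshold (limma, adjusted p = 1.00 without a block, 0.452 under the shared block and 0.0461 under a block per line). Adjusted over 23973 probe sets in place of 13197 genes, the same probe set did not pass (adjusted p = 0.0588).

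The other 5 genes were called in no fit of this comparison. Spi1 stood at 11.45 and 12.27 in RAW alone and at 11.31 and 12.26 in RAW co-culture, a difference of -0.08 ± 0.36. With a block per line its 95% interval was -0.32 to 0.17, which bounds a change of Spi1 more closely than the interval without a block, -0.94 to 0.78. Ikzf1 stood at 10.57 and 10.82 in RAW alone and at 10.60 and 11.11 in RAW co-culture, a difference of 0.16 ± 0.21. Cebpb differed by -0.07 ± 0.56, with -0.06 and -0.07 in the experiments, and a block per line gave an interval of -0.26 to 0.13. The other Cebpb probe set differed by -0.004 ± 0.48. Maf differed by 0.03 ± 0.15. The RAW groups overlapped for all of them and for Cebpa.

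Runx1 gave different readings by probe set. The brightest stood at 8.88 and 8.97 in RAW alone and at 8.80 and 9.02 in RAW co-culture, a difference of -0.01 ± 0.13. Another stood at 7.72 and 8.31 in RAW alone and at 6.92 and 7.88 in RAW co-culture, a difference of -0.61 ± 0.33. It passed with a block per line, where 1.64% of all probe sets were called lower, and in neither other fit (limma over probe sets, adjusted p = 0.0432, against 0.398 under the shared block and 1.00 without a block). A further one read the same difference, -0.61 ± 0.32, at 7.05 and 7.52 against 6.21 and 7.15, and passed in no fit (adjusted p = 0.105 under a block per line). The remaining 3 Runx1 probe sets differed by -0.20 to -0.00. Thus 2 of the 6 probe sets were lower in both experiments by more than any of the other 4, and the transcripts that each probe set reads were not resolved here.

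**Figure D2:**
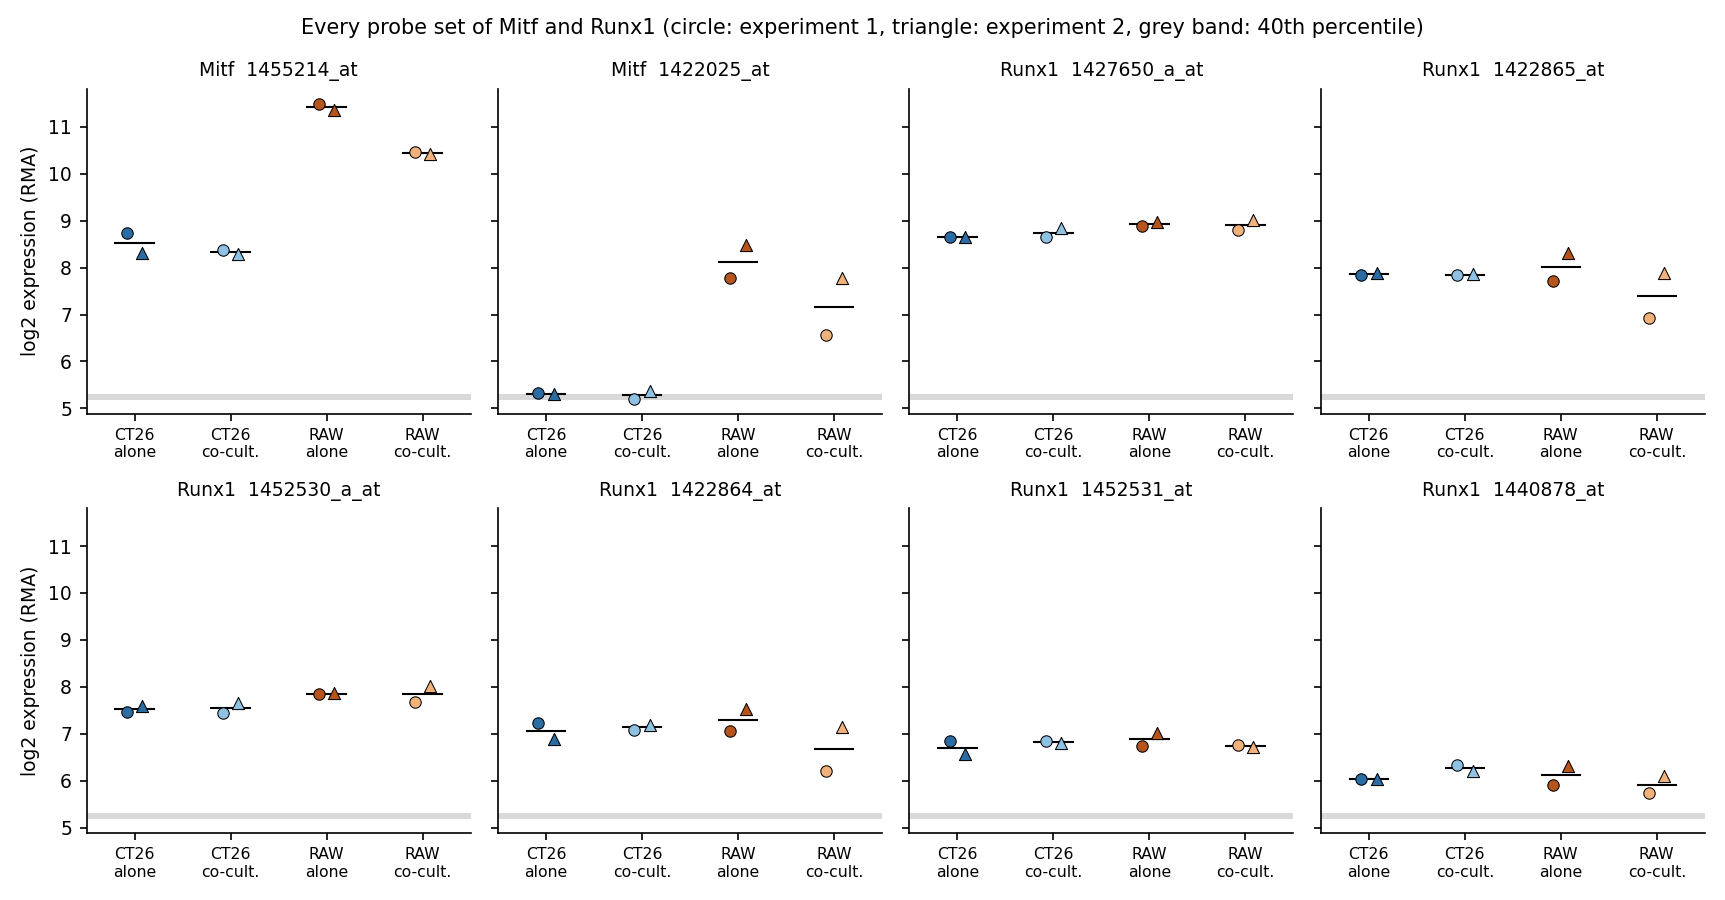
log2 expression (RMA, vertical axis) of each probe set of Mitf and Runx1 in the 4 groups (horizontal axis), with circles for experiment 1, triangles for experiment 2 and lines for the mean of 2 arrays. Both Mitf probe sets are lower in RAW co-culture than in RAW alone within each experiment, whereas 2 probe sets of Runx1 are lower (-0.61 each) and its brightest probe set differs by -0.01.

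In CT26 cells 0 of the 7 genes passed in any fit of the co-culture comparison, and neither did any of the 13197 genes (0%). Before adjustment, limma gave p under 0.05 for 107 genes when no block was fitted, for 356 under the shared block and for 751 under a block per line. Of the 7 genes, 1 and 3 were among the 107 and the 751. Maf read 6.01 and 6.31 in CT26 alone and 6.39 and 6.63 in CT26 co-culture. The difference, the largest positive one of the 7, was 0.35 ± 0.15 (limma, adjusted p = 1.00 without a block and 0.564 with a block per line), at a level close to the floor. The other Maf probe set above the floor differed by 0.03 ± 0.17.

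Spi1 read 6.39 and 6.21 in CT26 alone and 5.87 and 5.99 in CT26 co-culture, a difference of -0.37 ± 0.36 (limma, adjusted p = 1.00 without a block and 0.666 with a block per line). Of the 14 macrophage markers 8 to 9 lay above the floor in CT26 alone and 5 to 7 in CT26 co-culture, and single markers differed by -0.33 to 0.36 with a mean of 5.61 to 5.62 in all 4 arrays. Their part in the Spi1 value was not tested. Cebpb differed by 0.21 ± 0.56, with 0.25 and 0.17 in the experiments. Mitf differed by -0.19 ± 0.16, Ikzf1 by -0.16 ± 0.21, Runx1 by 0.10 ± 0.13 and Cebpa by 0.04 ± 0.58. The other Ikzf1 probe set differed by 0.22 ± 0.38. The CT26 groups did not overlap for Maf and Runx1, which were higher in co-culture, against 9.69% of all genes, and for Spi1, which was lower, against 11.3%.

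**Figure D3:**
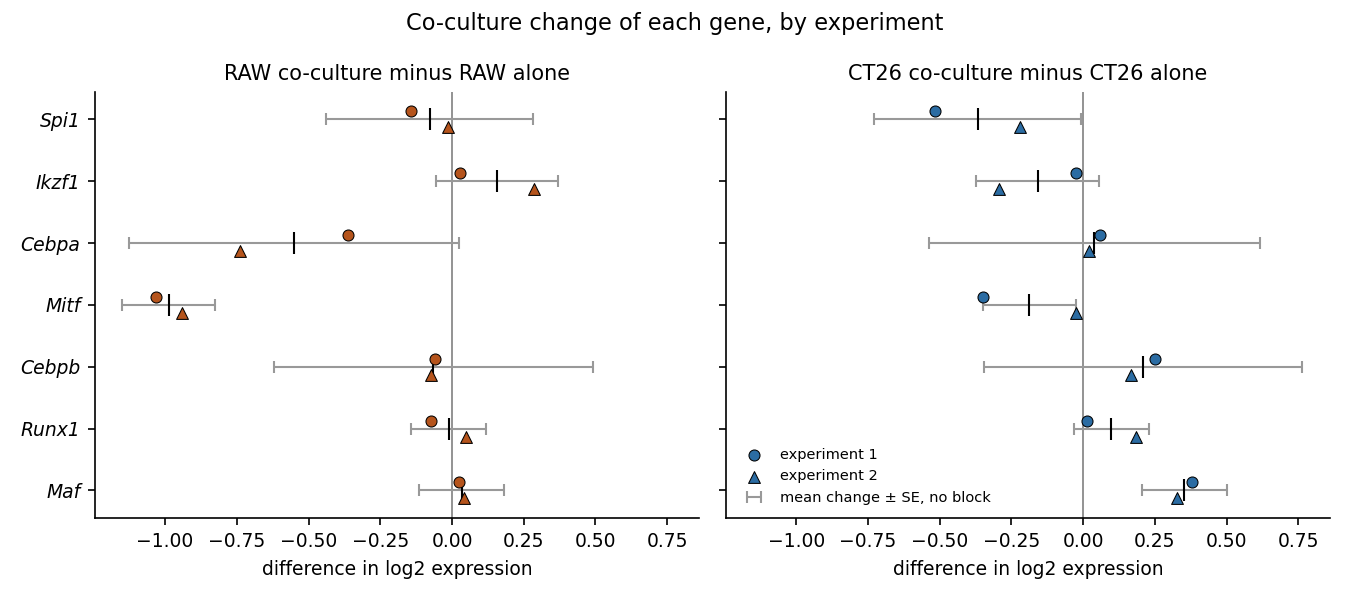
Co-culture minus alone in log2 units (horizontal axis) for each of the 7 genes (vertical axis) in RAW (left) and CT26 (right); circles and triangles are the differences within experiments 1 and 2, black ticks their mean and bars the SE of the model without a block. Mitf in RAW lies at -1.03 and -0.94, apart from the other genes, and the bars of Cebpa (0.58) and Cebpb (0.56) are the widest.

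The difference between the co-culture values of the lines was tested directly. For Mitf the RAW value minus the CT26 value was -0.80 ± 0.23 log2 units, with -0.68 and -0.92 in the experiments, and this passed in no fit (limma, adjusted p = 1.00 without a block, 0.269 under the shared block and 0.0831 under a block per line). The other 6 genes passed in no fit either, where 0.00758% of all genes did without a block, 0.0834% under the shared block and 0.743% under a block per line. A co-culture response of Mitf restricted to RAW is therefore not shown by this test.

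Each of the 7 genes differed between the experiments in the same direction in both RAW groups, by sizes that were described and not tested. Cebpa was higher in experiment 2 by 1.56 in RAW alone and 1.18 in RAW co-culture, Cebpb by 1.15 and 1.13, and Spi1 by 0.82 and 0.95. In RAW alone these gaps were larger in size than those of 99.8%, 99.1% and 96.2% of all genes, while the median over all genes was 0.01. In CT26 the same gap was 0.55 and 0.51 for Cebpa and 0.89 and 0.81 for Cebpb, and for Spi1 it was -0.18 and 0.12. Ikzf1 was higher in experiment 2 by 0.26 in RAW alone and 0.52 in RAW co-culture, Runx1 by 0.09 and 0.21, and Maf differed by -0.04 and -0.03. Mitf differed between the experiments by -0.13 in RAW alone and -0.04 in RAW co-culture. What differed between the experiments was not tested.

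No tested relative of the 7 factors was called with co-culture. Of 23 genes of the same families 13 were tested, and 0 were called in RAW or CT26 by any fit, with a median of 0.07 in RAW beside 0.01 over all genes. The largest statistics were those of Maff (0.31 ± 0.16) and of Ddit3, a stress-induced C/EBP relative (0.69 ± 0.39; limma, adjusted p = 1.00 without a block and 0.0639 with a block per line). Tfec, the macrophage member of the MiT/TFE family, stood at 9.85 and 9.37 in RAW alone and at 9.38 and 9.11 in RAW co-culture, a difference of -0.37 ± 0.23 (limma, adjusted p = 0.260 with a block per line). Its relatives Tfe3 (0.07 ± 0.32) and Tfeb (-0.09 ± 0.20), regulators of lysosomal genes, were not called. Between the lines grown alone Tfec, under the floor in both CT26 arrays (4.50 and 4.33), was called higher in RAW, by at least 20.4-fold against the floor. Cbfb, which encodes the partner subunit of RUNX proteins, was also higher (0.40 ± 0.12). Called lower were 3, Maff (-1.57 ± 0.16), Cebpg (-1.37 ± 0.16) and Mafk (-0.40 ± 0.12). Among all genes 17% were called higher and 17.6% lower in this comparison.

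Of 30 other transcription factors of myeloid cells 25 were tested, and 0 were called in RAW co-culture without a block. With a block per line 2 were called higher and 3 lower, where 1.55% and 2.01% of all genes were, with a median of -0.02. With the shared block 0 were called higher and 1, Nfatc1, lower (limma, adjusted p = 0.0226), where 0.508% and 0.599% of all genes were. Egr2, an immediate-early zinc finger gene, was at 6.59 and 7.91 in RAW alone and 4.95 and 6.58 in RAW co-culture, the first of these under the floor (-1.48 ± 0.58; limma, adjusted p = 0.890 without a block and 0.00121 with a block per line). Nfatc1, the calcium-driven factor of osteoclast differentiation, was at 10.77 and 10.72 in RAW alone and 9.23 and 9.76 in RAW co-culture (-1.25 ± 0.23; adjusted p = 0.166 and 0.00923). The groups of Nfatc1 did not overlap, and those of Egr2 were only just apart (6.59 against 6.58). Such a gap in this direction was shown by 12.3% of all genes. Klf4 differed by -0.78, Lyl1 by 0.70 and Egr1 by 1.11 under the same call. In the comparison of the lines grown alone Irf5 was higher in RAW (4.88 ± 0.39). Fli1 and Lmo2, under the floor in both CT26 alone arrays, were higher by at least 19.1-fold and 23.3-fold against it, and Hhex, with 1 such array, by at least 32.3-fold. Of the 25 tested, 11 were called higher in RAW alone and 5 lower, where 17% and 17.6% of all genes were. In CT26 alone 3 of the 25 lay under the floor in both arrays. Among the 5 were Gata2 (-3.54 ± 0.23), Egr1 (-3.50 ± 0.52), Klf4 (-2.52 ± 0.30) and Nr4a1 (-1.42 ± 0.25).

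Genes known as targets of the factors were listed by textbook knowledge, also with earlier results of these data known. Of 11 genes listed for MITF and its relatives, 9 were tested, 0 were called in RAW co-culture without a block, and 2 were called lower with a block per line, where 2.01% of all genes were, with a median of -0.10. With the shared block 0 were called. Ctsk, the collagen-degrading protease of osteoclasts, stood at 8.43 and 7.81 in RAW alone and at 7.33 and 7.14 in RAW co-culture (-0.88 ± 0.24; limma, adjusted p = 0.502 without a block and 0.0415 with a block per line). Acp5, the tartrate-resistant acid phosphatase, stood at 8.36 and 6.97 in RAW alone and at 7.38 and 6.29 in RAW co-culture (-0.83 ± 0.50; adjusted p = 1.00 and 0.0340). Both were lower in each experiment, as 29.1% of all genes were. The groups of Ctsk did not overlap, a gap in this direction that 12.3% of all genes showed. The lysosomal genes Clcn7, Ostm1 and Mcoln1 differed by -0.09 to -0.00, and Gpnmb by -0.28 ± 0.23. Between the lines grown alone 4 of the 9 were called higher in RAW and 2 lower, where 17% and 17.6% of all genes were. Higher were Ctsk (2.59 ± 0.24), Ostm1 (0.53 ± 0.16), Cdk2 (0.51 ± 0.15) and Acp5. With 1 CT26 alone array under the floor, Acp5 was higher by at least 4.85-fold against it. Gpnmb (-2.02 ± 0.23) and Bcl2 (-0.85 ± 0.14) were lower.

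Of 24 genes listed for PU.1 and RUNX1, 21 were tested, and 13 of these are also among the 14 macrophage markers above. In CT26 alone 6 of the 21 lay under the floor in both arrays and entered the test through RAW, so a count between the lines repeats the filter and the marker check. Csf1r, the receptor of the macrophage growth factor CSF1, stood at 14.68 and 14.65 in RAW alone and at 5.83 and 5.35 in CT26 alone. In RAW co-culture the median of the 21 was -0.06. With a block per line 1 was called higher, the Fc receptor gene Fcgr1, and 1 lower, Adgre1. Among all genes that block called 1.55% higher and 2.01% lower. Adgre1 encodes an adhesion receptor of mature macrophages. With the shared block Fcgr1 was called (limma, adjusted p = 0.0183), where 0.508% of all genes were called higher, and Adgre1 was not. Csf1r itself differed by -0.16 ± 0.17.

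Of 16 genes listed for C/EBP proteins 7 were tested and 2 were called lower in RAW co-culture with a block per line, S100a8 (-0.99 ± 0.18) and Ptgs2 (-0.61 ± 0.51), where 2.01% of all genes were called lower, with a median of -0.03. With the shared block 0 were called. Of 10 genes listed for MAF 5 were tested, with a median of -0.07. With a block per line Il10 was lower (-1.51 ± 0.21) and Pf4 higher (0.84 ± 0.37), where 2.01% and 1.55% of all genes were. By limma the adjusted p of Il10 was 0.0585 without a block and 0.0016 with that per-line block. Both Il10 arrays of RAW co-culture, at 4.97 and 5.16, lay under the floor. Il10 encodes an anti-inflammatory cytokine and Pf4 a chemokine. With the shared block Il10 was called (limma, adjusted p = 0.00913), where 0.599% of all genes were called lower, and Pf4 was not. In CT26 co-culture 0 genes of any target list were called in any fit.

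**Figure D4:**
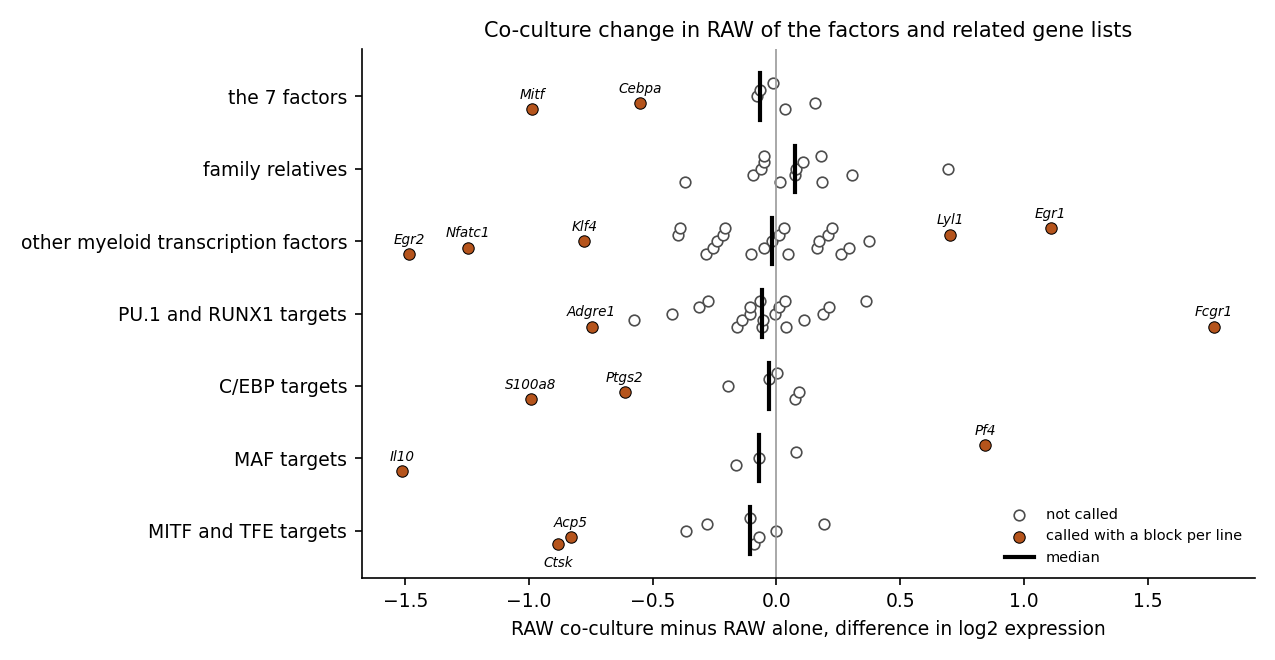
RAW co-culture minus RAW alone in log2 units (horizontal axis) for the tested genes of each list (vertical axis); filled points passed limma with a block per line, open points did not, and bars mark list medians. Among the 7 factors Mitf (-0.99) and Cebpa (-0.55, with an SE of 0.58 without a block) are the filled points. Cebpa was called in this fit only, and the list medians lie between -0.10 and 0.07.

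For each factor the genes with the most similar levels were sought, by the root mean square of the difference between the profiles over the 8 arrays after each was centred on its own mean. Nearest to Spi1 were Was (0.143 log2 units), Slc11a1 (0.163) and Myo7a (0.219), and nearest to Ikzf1 were C5ar1 (0.137), Ydjc (0.170) and Bend4 (0.183). Cebpa had Cd300lb (0.145), Ptp4a3 (0.166) and Plau (0.215), and Mitf had Ell2 (0.196), Cat (0.209) and Adcy7 (0.212). Pearson's r of these 12 pairs was 0.988 or more, which the step between the lines, shared by all 8 arrays, makes high. Of the genes with small differences between the lines, Cebpb had Ubl7 (0.0721), Itpr3 (0.0936) and Scamp3 (0.114), Runx1 had Cbs (0.0368), Babam2 (0.0411) and Eps15l1 (0.0457), and Maf had Crybg2 (0.0822), Galnt9 (0.0871) and Spink4 (0.0887). The small distances of Runx1 and Maf go with flat profiles, and all the distances are a description.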

How the data were processed

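Total RNA of 8 samples was measured on Affymetrix arrays. The deposited values are log2 expression values that the authors made with RMA in affy, per the submitters' processing notes. Their versions and settings are not stated in the sources used. Array medians were 5.89 to 5.95, and the sorted values of any 2 arrays lay within 0.158 log2 units, which leaves no view of total RNA. RMA compresses dim signals, so folds near the floor come out too small. Precision is limited by having 8 arrays. No pair of columns was identical.

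Of 45101 probe sets 64 controls were left out. The platform annotation gave a single symbol for 34945, more than 1 for 932 and no entry for 9160. Entrez identifiers of 34741 matched RefSeq (GRCm38.p6), and 0 symbols changed. Each gene was read from its single-symbol probe set of highest mean, and a gene was tested if it lay above the 40th percentile of the arrays in both arrays of a group.

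The 4 group means were fitted over 8 arrays with limma 3.58.1 in R 4.3.3 (4 residual degrees of freedom, two-sided, Benjamini-Hochberg over 13197 genes, threshold 0.05), and separately over 23973 probe sets. The script was tested on simulated data. A fold written as at least a value sets the RAW alone mean against the higher of the floor and the gene's own level in each CT26 alone array. The numbers in the labels mark the experiments, and same-numbered arrays deviated together from their group means (correlation 0.753 for the CT26 groups, 0.765 for the RAW groups, 0.484 to 0.561 across lines), so the experiments pair the samples. The main fit has no block, and fits with the experiment as a block shared by the lines or per line (3 and 2 residual degrees of freedom) stand beside results they change. The median SE of the RAW co-culture comparison was 0.165 without a block and 0.0938 with a block per line. Other alternatives were the floor, the mean of probe sets, cyclic loess, median centring, a variance trend, only the groups compared and leaving out each array.

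The 7 genes and the lists were chosen with earlier results of these data known. From each list and comparison the rule for names took the 4 largest changes in each direction among genes called, or else the 2 largest statistics, and the text gives those that bear on the 7 genes. List genes called only with a block per line, and others such as Tfec, Tfe3, Tfeb, Csf1r and the lysosomal genes in RAW co-culture, were named after their values were seen.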

Additional observations from a re-analysis of the deposited data

Results flagged for a closer look

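On their brightest probe sets Cebpa, Cebpb and Ikzf1 had co-culture differences of opposite sign in the lines, in both experiments. Cebpa was lower in RAW (-0.36 and -0.74) and higher in CT26 (0.06 and 0.02), and the RAW minus CT26 difference was -0.59 ± 0.81 (SE). Cebpb was lower in RAW (-0.06 and -0.07) and higher in CT26 (0.25 and 0.17), a difference of -0.27 ± 0.79. The other Cebpb probe set stood at 9.89 and 10.87 in RAW alone and at 9.98 and 10.77 in RAW co-culture. Its RAW difference thus had opposite signs in the experiments. Ikzf1 was higher in RAW (0.03 and 0.29) and lower in CT26 (-0.02 and -0.29), a difference of 0.32 ± 0.30. In CT26 this probe set lay near the floor, at 5.41 to 5.80. The other Ikzf1 probe set read 5.79 and 6.89 in CT26 alone and 6.37 and 6.76 in CT26 co-culture. Its CT26 difference had opposite signs in the experiments, with a mean of 0.22 ± 0.38. Its RAW minus CT26 difference was 0.02 ± 0.54. The difference between the lines passed for none of the 3 in limma (adjusted p = 1.00 for each without a block, and 0.199, 0.445 and 0.501 with a block per line).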

How the results depend on the processing

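Of 578 values of single factors under 17 alternatives, 540 kept their direction and side of the threshold and 27 reversed, 25 of them on leaving out an array. The RAW co-culture value of Mitf kept its direction in all 17 and lay between -1.05 and -0.92 on leaving out each array. The experiment as a replicate block raised the calls in RAW co-culture from 33 genes to 146 (shared) and 470 (per line), and those of the 7 factors from 0 to 1 and 2. It raised the calls between the lines grown alone from 4563 genes to 6978 and 7735, between the co-cultured lines from 4587 to 7651 per line, and in the difference between co-culture values from 1 to 11 and 98. With only the groups compared 4 genes were called in RAW co-culture. The difference between co-culture values gave 3 genes with the 60th percentile floor, 2 with cyclic loess and 4 with a variance trend. Leaving out each array gave 2 to 30 genes in RAW co-culture, 0 to 2 in the difference between co-culture values, 3138 to 4485 and 3342 to 4464 between the lines grown alone and co-cultured, and 3 to 4 factors between the co-cultured lines. With the mean of a gene's probe sets, Ikzf1 in CT26 reversed to 0.033 and Runx1 between the co-cultured lines to -0.15. On leaving out each array, RAW co-culture values ran from -0.55 to 0.40 for Spi1, -1.33 to 0.23 for Cebpa, -0.64 to 0.51 for Cebpb, -0.12 to 0.094 for Runx1 and -0.10 to 0.42 for Ikzf1. CT26 co-culture values ran from -0.23 to 0.31 for Cebpa, -0.24 to 0.65 for Cebpb, -0.34 to 0.026 for Ikzf1 and -0.40 to 0.028 for Mitf. Cebpb between the co-cultured lines ran from -0.19 to 0.95. The difference between co-culture values ran from -0.19 to 0.77 for Spi1, -1.37 to 0.19 for Cebpa and -0.85 to 0.30 for Cebpb. Leaving out an array leaves a group with 1 array, assumed to vary like the others, and breaks the pairing, and the cause of the other changes was not tested. The block was not combined with leaving out an array. The difference between co-culture values uses all arrays and has no fit on fewer groups.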
